A study of Mus musculus with 26 samples.

Results

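The data describe the unstressed baseline of bone marrow leukocytes from SCID mice. They come from the 10 home cage control arrays of a series of 26, chosen by their titles, with 5 control arrays in experiment 2 and 5 in experiment 1. Every array held total RNA of flow-sorted femoral marrow leukocytes of a male CB17/Icr-Prkdcscid mouse aged 6 to 8 weeks. All mice, controls included, carried engrafted human acute lymphoblastic leukemia cells, which were gated out in the sort. The other arrays were of mice under restraint stress (5 in experiment 2 and 5 in experiment 1) or under restraint stress with propranolol, a beta-adrenergic blocker (3 in experiment 2 and 3 in experiment 1). They were used here only to set beside the controls. RNA was amplified by the NuGEN Ovation PicoSL whole-transcriptome method and hybridised as biotinylated cDNA to the Illumina MouseRef-8 v2.0 beadchip, whose beads each carry one probe.

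The scid mutation lies in Prkdc, the DNA-dependent protein kinase that joins the DNA ends left by Rag1 and Rag2 when B- and T-cell receptor genes are cut and rejoined. Lymphocytes of these mice therefore stop early in development, while the myeloid, erythroid, megakaryocytic and NK lineages form without that step. Marrow leukocytes are mainly granulocytes and their precursors, which make granule proteins in a fixed order as they mature. Red cell precursors share the marrow and switch on globin, heme synthesis and membrane skeleton genes under Gata1 and Klf1.

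Values are log2 intensities after background correction and quantile normalization, and a gene is represented by its brightest kept probe. "Detected" means a deposited detection p-value under 0.05. An SD is the spread among arrays of one experiment, pooled over both experiments unless a group is named. Whether the replicate arrays came from separate mice is not stated, so p-values measure only the spread between these samples, which may be technical. On arrays of mixed leukocytes, fewer cells of a type and less RNA per cell cannot be told apart.

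The arrays had 2 properties that touch every result. The replicate 4 control of experiment 2 and the replicate 5 control of experiment 1 stood apart from the rest. They correlated at 0.843 to 0.938 with the other 8 control arrays and at 0.922 with each other, while the other 8 correlated among themselves at 0.959 to 0.988. Of all 9909 genes kept, 18.6% were lowest and 21% highest on these 2 arrays. The mean of the cytosolic ribosomal protein genes was 9.35 and 9.37 on them, against 9.73 to 9.99 on the other 8. The arrays also sat on different slides. The 5 experiment 2 controls were on slides 2 and 3 (3 and 2 arrays) and the 5 experiment 1 controls on slide 1, so among the controls alone experiment and slide cannot be told apart. A result that turns on the 2 arrays is given with and without them.

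Of 17899 genes on the array, 7011 (39.2%) were detected on all 10 control arrays and 6603 (36.9%) on none. The share of probes detected was 47.6% ± 2.96 in experiment 2 and 48.9% ± 2.64 in experiment 1 (SD, n = 5 each). The difference of -1.37 percentage points was within the spread between arrays, with a 2-sided exact permutation p of 0.476, where 252 relabellings allow a smallest p of 0.00794. By array the share was 48.5%, 49.0%, 47.9%, 42.5% and 50.002% in experiment 2, against 48.5%, 49.9%, 51.2%, 50.5% and 44.6% in experiment 1. The 2 arrays that stood apart had the lowest shares. Without them the difference was -1.18 percentage points.

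Markers of the labelled cells were present. Ptprc, the CD45 antigen of all leukocytes, was detected on all 10 arrays with a mean of 10.63. All 4 Y-linked genes measured (Ddx3y, Eif2s3y, Kdm5d and Uty) were also detected on all 10, while Xist, the X-inactivation transcript, was detected on 1 array of experiment 2 and none of experiment 1. Prkdc itself was detected on 2 arrays of experiment 2 and 3 of experiment 1. The scid mutation changes the protein, so a probe level does not check it.

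Neutrophil genes were the most completely detected. All 5 primary granule genes on the array (such as Mpo, myeloperoxidase, and Elane, neutrophil elastase), all 11 secondary granule genes and all 10 genes of mature neutrophils were detected on every control array. Mpo measured 11.25, 11.23, 11.29, 10.81 and 11.58 in experiment 2, against 11.54, 11.45, 11.47, 11.36 and 11.04 in experiment 1. Camp, the antimicrobial cathelicidin, measured 12.62, 12.59, 12.64, 12.32 and 12.49 in experiment 2, against 12.49, 12.38, 12.46, 12.49 and 12.77 in experiment 1. Ltf, the iron-binding lactoferrin of secondary granules, measured 12.43, 12.46, 12.32, 12.19 and 12.52 in experiment 2, against 12.52, 12.09, 12.49, 12.56 and 12.33 in experiment 1. The groups overlapped in all 3 genes, and their spread was small beside that of the erythroid genes described below.

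Other myeloid lineages were present as well. Among monocyte genes 8 of 9 were detected on all 10 arrays, among them Csf1r, the receptor for macrophage colony-stimulating factor. Macrophage genes were detected less uniformly: 7 of 15 on all 10, 6 on some and 2 (C1qa and Siglec1) on none. Eosinophil genes followed with 6 of 9 on all 10 and Ccr3 and Il5ra, 2 receptors of eosinophils, on none. Stem and progenitor genes were detected on all 10 arrays for 9 of 14 and on some for the other 5. Megakaryocyte genes were detected on all 10 for 6 of 12, and the platelet glycoprotein gene Gp1bb on none.

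Lymphoid genes divided by lineage. NK-cell genes, whose lineage needs no receptor rearrangement, were detected on all 10 arrays for 9 of 12 and on some for the other 3. Ncr1, an activating receptor of NK cells, measured 7.08, 6.95, 7.67, 6.54 and 6.59 in experiment 2, against 7.45, 7.99, 7.28, 6.47 and 7.89 in experiment 1. B-lineage genes were detected on all 10 arrays for 5 of 14, on some for 6 and on none for 3, which were Pax5, the B-lineage commitment factor, Rag2 and Ms4a1, which encodes CD20. T-cell genes were detected on all 10 for 4 of 13 and on some for 9. Cd3e was detected on no array of experiment 2 and 1 of experiment 1, whereas Cd3d was detected on all 10 at 9.60, 9.94, 9.47, 9.33 and 9.05 in experiment 2, against 9.50, 9.39, 9.09, 9.99 and 9.33 in experiment 1. The probes of these 2 subunits of one receptor complex thus differ in detection.

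Markers of cells that are not leukocytes were also measured. Stromal and bone genes were detected on all 10 arrays for 3 of 15 and on none for 5 (Pdgfrb, Bglap, Adipoq, Sp7 and Postn). Endothelial genes were detected on all 10 for 3 of 11 and on none for 5 (Cdh5, Kdr, Emcn, Plvap and Eng). Erythroid genes were detected on all 10 arrays for 7 of 20 and on some for the other 13. Several markers, among them Ly6g, Cd79a, Ighm and Kit, were not analysed here.

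**Figure D1:**
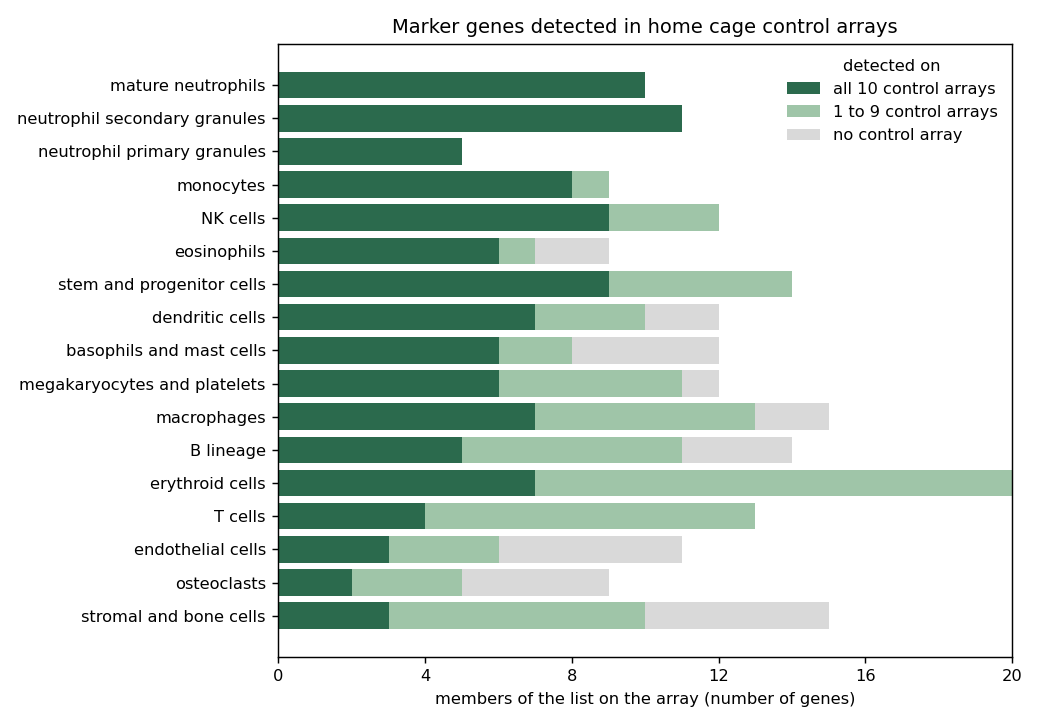
Number of marker genes of each of the 17 cell-type lists that were detected on all 10 control arrays, on 1 to 9 and on none (horizontal axis, genes on the array; vertical axis, lists). All 26 genes of the 3 neutrophil lists were detected on all 10 arrays, against 7 of 20 erythroid and 5 of 14 B-lineage genes.

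The 25 brightest genes had means between 12.18 and 13.79. This is an order of probe brightness, which depends on each probe's hybridisation, and not an order of transcript abundance. Neutrophil products held 4 of the 25 places by the marker lists: S100a9 and S100a8, the subunits of the antimicrobial protein calprotectin, with Camp and Ltf. Lyz1, a lysozyme gene, was also among the 25 by its brightest probe. Its other probes had means of 7.30 and 4.68. S100a9 measured 13.88, 13.88, 13.88, 13.88 and 13.73 in experiment 2, against 13.88, 12.82, 13.23, 13.73 and 13.88 in experiment 1. Lyz1 measured 12.17, 12.30, 12.24, 12.04 and 12.26 in experiment 2, against 12.28, 12.05, 12.16, 12.30 and 12.09 in experiment 1. Values as bright as that of S100a9 repeat because quantile normalization gives the top ranks of every array the same values, which limits the spread they can show.

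The remaining bright genes included housekeeping genes (Rpl23, of the large ribosomal subunit, Actb, beta-actin, Eif4a2, a translation helicase, and Psmd4, of the proteasome), the ferritin heavy chain Fth1 and lysosomal Psap and Npc2. They also included Dusp1 and Nfkbiz, which stimulation induces quickly, and Btg1, an antiproliferative gene. Ctcfl, with a mean of 13.28, was among the 25 as well. The SD of the 25 lay between 0.071 and 0.33. For some of them other probes of the same gene were far dimmer. Erich5 had a second probe with a mean of 4.72 that was detected on no array, and Terf2ip, a telomere protein, had 3 others with means of 5.34, 6.48 and 6.78. The brightness of these genes rests on 1 probe each.

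Genes differed widely in how much they varied between control arrays. The median SD over all 9909 genes was 0.34, the 90th percentile 0.66 and the 99th 1.13. The median error among beads of one probe on one array was 0.075. The control arrays were about as variable as the restraint arrays, whose median SD was 0.35, and the control SD was the larger in 48.1% of genes. The members of the following set were chosen by these SDs, so their spread is a description and was not tested. They are the 30 genes of largest SD among those detected on all 10 controls (SD 1.15 to 2.34, the next gene at 1.14), and the 10 of largest SD among those detected on 3 to 9 (1.82 to 2.57, the next also 1.82).

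The largest spread was in red cell genes, and it followed the same 3 arrays. Slc4a1, the band 3 anion exchanger of the red cell membrane, had the largest SD of all genes (2.57), which was 1.60 without replicate 3 of experiment 1. It measured 10.88, 11.37, 10.45, 7.37 and 7.06 in experiment 2, against 10.56, 11.40, 4.37, 11.63 and 10.35 in experiment 1. The 3 low values came from replicates 4 and 5 of experiment 2 and replicate 3 of experiment 1. Eraf, the alpha-hemoglobin stabilising protein, had an SD of 2.34 and measured 10.54, 10.85, 9.93, 6.39 and 6.75 in experiment 2, against 9.89, 10.86, 4.94, 11.02 and 10.06 in experiment 1. Rhd, a membrane protein of the Rh blood group complex, measured 9.50, 9.80, 8.80, 5.58 and 4.39 in experiment 2, against 8.95, 9.81, 4.33, 9.63 and 9.54 in experiment 1. Alas2, which catalyses the first step of heme synthesis in red cell precursors, measured 9.70, 10.28, 9.13, 7.37 and 6.25 in experiment 2, against 9.49, 10.13, 5.27, 10.20 and 8.83 in experiment 1. In each of these genes the same 3 arrays were the lowest. On replicate 3 of experiment 1 Slc4a1 and Rhd lay below the lowest signal of a detected probe (4.86). On replicate 5 of experiment 2 Rhd did so too (4.91).

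These 3 arrays were the lowest for 17 of the 40 most variable genes and for 211 of all genes (2.13%). Besides the 4 above, the 17 include Trim10, an erythroid ubiquitin ligase, Slc38a5, a glutamine transporter, Aqp1, a water channel, Car2, a carbonic anhydrase, Blvrb, a biliverdin reductase, Cd36, Hbb-b2, Btnl10 and Tlcd4. The alpha-globin gene Hba-a1 measured 11.61, 11.87, 11.17, 8.80 and 9.98 in experiment 2, against 11.21, 11.67, 8.63, 11.44 and 9.85 in experiment 1. It was low on the same arrays and on replicate 5 of experiment 1. The globin genes have near-identical copies (Hba-a1 and Hba-a2, Hbb-b1 and Hbb-b2) that one probe may not separate.

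The erythroid list as a whole showed the same order. The mean of its 20 genes was 8.11, 8.53, 7.41, 5.95 and 5.87 in experiment 2, against 7.62, 8.65, 5.35, 8.78 and 7.67 in experiment 1. It averaged 7.17 ± 1.22 in experiment 2 and 7.61 ± 1.38 in experiment 1 (SD, n = 5 each). Its SD within experiments was 1.30 among controls and 0.49 among restraint arrays. The 3 low control arrays lay inside the range of the restraint arrays, 5.14 to 6.65, and the other 7 above it. By single genes, 14 of the 20 had an SD over 1 among controls and 6 among restraint arrays. Heme synthesis genes moved with them: the mean of the 11 was 8.85, 9.15, 8.35, 7.87 and 7.58 in experiment 2, against 8.47, 9.22, 7.53, 9.24 and 8.49 in experiment 1. Among the members, 13 of 20 erythroid and 7 of 11 heme synthesis genes were lowest on the same 3 arrays, against 2.13% of all genes. The 3 arrays are those of lowest erythroid list mean, so the erythroid count partly follows from how they were picked.

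**Figure D2:**
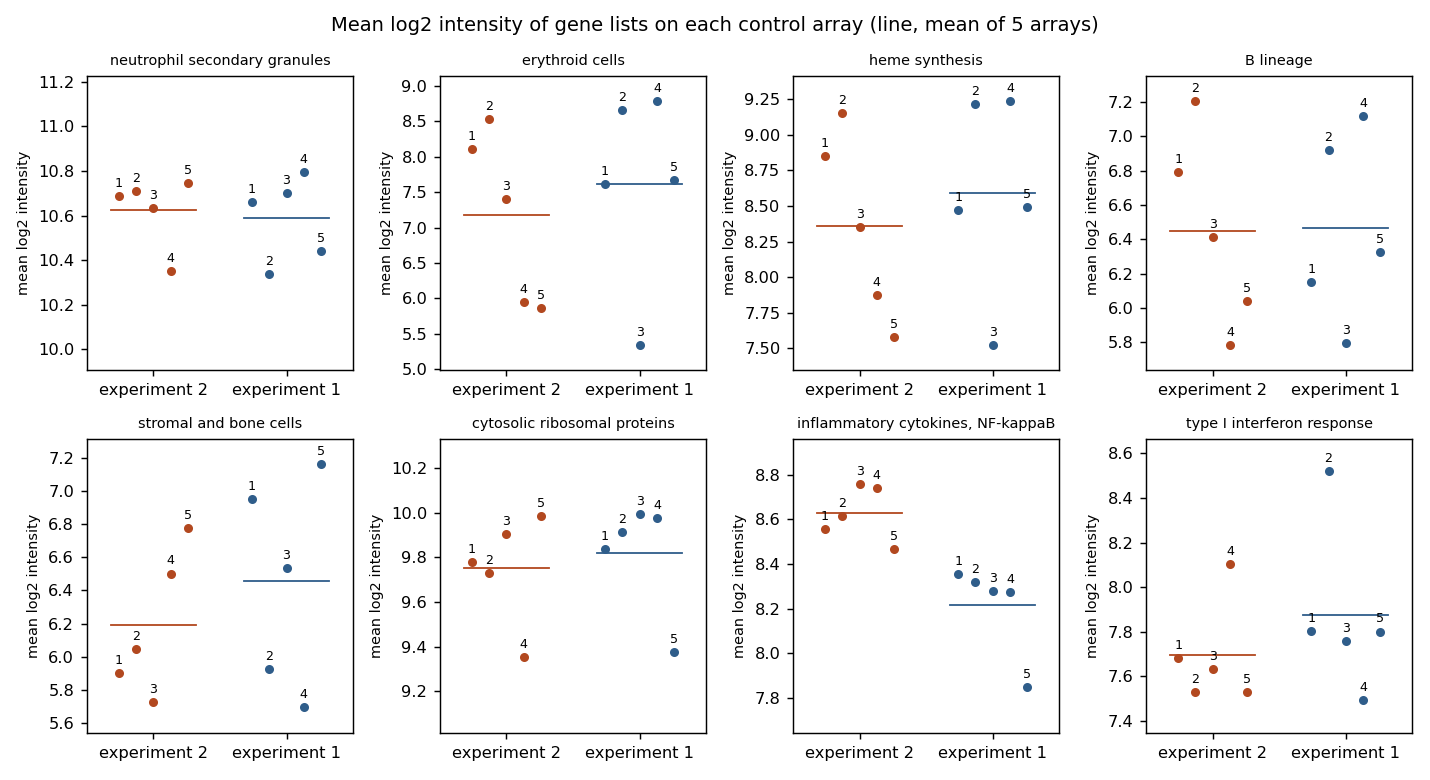
Mean log2 intensity of 8 gene lists (vertical axis, log2 intensity; 1 panel per list) on each control array, experiment 2 left of experiment 1, with replicate numbers as points and a line at each group mean. The erythroid, heme and B-lineage panels spread over far more than the neutrophil secondary granule panel, and replicates 4 and 5 of experiment 2 and 3 of experiment 1 are the lowest erythroid arrays.

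Promoters of erythroid genes are shown because these members moved together across arrays and belong to a program that Gata1, a zinc-finger factor, is known to drive. The promoter sequences are those of RefSeq on GRCm38.p6, with 250 bases before and 50 after each gene's start, printed 5′ to 3′ on the gene's strand. Capitals mark a GATA motif, AGATAA or TGATAA on either strand. Of the 7 erythroid genes among the 40 most variable, the 4 with an entry are given, with Klf1 (SD 1.75), which falls outside the 40.
Alas2 lies on chrX:150547167-150547466, plus strand, with its match 86 bases upstream of the start.
Alas2: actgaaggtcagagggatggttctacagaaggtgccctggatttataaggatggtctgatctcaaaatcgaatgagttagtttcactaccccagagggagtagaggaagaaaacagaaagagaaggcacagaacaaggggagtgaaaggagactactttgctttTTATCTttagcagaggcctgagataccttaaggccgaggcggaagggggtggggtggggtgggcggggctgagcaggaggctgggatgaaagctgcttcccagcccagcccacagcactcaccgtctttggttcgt
Hba-a1 lies on chr11:32283422-32283721, plus strand, with its match 183 bases upstream.
Hba-a1: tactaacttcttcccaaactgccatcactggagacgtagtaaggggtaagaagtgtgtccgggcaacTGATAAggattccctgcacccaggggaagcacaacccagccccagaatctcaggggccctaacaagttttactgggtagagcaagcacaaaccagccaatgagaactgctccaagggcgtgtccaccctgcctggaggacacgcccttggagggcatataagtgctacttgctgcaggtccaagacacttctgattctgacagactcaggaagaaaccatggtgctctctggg
Rhd lies on chr4:134864286-134864585, plus strand, with its match 43 bases upstream.
Rhd: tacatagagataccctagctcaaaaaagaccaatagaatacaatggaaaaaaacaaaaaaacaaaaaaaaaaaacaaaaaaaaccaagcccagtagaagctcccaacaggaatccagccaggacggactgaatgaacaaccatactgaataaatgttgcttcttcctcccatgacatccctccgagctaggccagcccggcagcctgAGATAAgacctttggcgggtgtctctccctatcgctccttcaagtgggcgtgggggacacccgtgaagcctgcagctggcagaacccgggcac
Trim10 lies on chr17:36869324-36869623, plus strand, with its match 163 bases upstream.
Trim10: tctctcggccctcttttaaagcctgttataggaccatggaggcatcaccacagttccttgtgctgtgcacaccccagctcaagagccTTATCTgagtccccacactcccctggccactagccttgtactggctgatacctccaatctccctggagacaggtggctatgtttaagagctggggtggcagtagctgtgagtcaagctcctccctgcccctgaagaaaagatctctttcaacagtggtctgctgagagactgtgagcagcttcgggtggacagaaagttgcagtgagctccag
Klf1 lies on chr8:84901732-84902031, plus strand, with its match 80 bases upstream.
Klf1: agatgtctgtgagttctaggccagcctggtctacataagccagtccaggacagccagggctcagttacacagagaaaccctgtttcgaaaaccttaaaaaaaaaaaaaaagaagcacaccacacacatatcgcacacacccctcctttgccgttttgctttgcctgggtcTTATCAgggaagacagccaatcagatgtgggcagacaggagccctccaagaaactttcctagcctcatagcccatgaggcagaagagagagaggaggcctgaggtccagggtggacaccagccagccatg
Each of the 5 promoters holds 1 match. Of the 20 erythroid list members 14 had an entry, and 12 of those held at least 1 match, Gata1 and Tfrc being the exceptions. Of all 32851 promoters of this length in the table, 18.61% held a match. A match is a description of the letters and not a binding site. Klf1, the erythroid Krüppel-like factor, measured 8.02, 8.25, 6.41, 4.55 and 4.71 in experiment 2, against 6.90, 8.61, 4.54, 8.84 and 7.78 in experiment 1. Gata1 measured 6.02, 6.03, 4.84, 4.51 and 4.53 in experiment 2, against 5.10, 6.66, 4.84, 6.55 and 5.76 in experiment 1. Klf1 was detected on 7 arrays and Gata1 on 6. On the 3 arrays of lowest erythroid level both lay below the lowest signal of a detected probe (5.31, 4.91 and 4.86). The Klf1 promoter belongs to a gene that itself was lowest on the 3 arrays.

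Some early B-lineage genes were among the most variable. Pou2af1, a transcriptional coactivator of B cells, had an SD of 2.21 and measured 8.09, 8.99, 8.40, 4.48 and 5.37 in experiment 2, against 6.33, 9.07, 4.43, 9.87 and 5.12 in experiment 1. Vpreb1, part of the surrogate light chain of pre-B cells, measured 9.39, 9.89, 9.18, 5.22 and 6.58 in experiment 2, against 7.74, 9.34, 5.82, 9.85 and 7.94 in experiment 1. Rag1, the recombinase subunit, measured 7.97, 8.78, 6.78, 5.81 and 5.19 in experiment 2, against 5.96, 8.56, 4.97, 8.79 and 7.40 in experiment 1. All 3 were low on the 3 arrays of low erythroid level. Pou2af1 was low on replicate 5 of experiment 1 as well. It was detected on 7 of the 10 arrays and Vpreb1 on 9. The mean of the 10 B-lineage genes kept was 6.79, 7.20, 6.42, 5.79 and 6.04 in experiment 2, against 6.15, 6.92, 5.80, 7.12 and 6.33 in experiment 1. This mean too was lowest on the 3 arrays. Its SD was 0.56 among controls and 0.15 among restraint arrays, whose values lay between 5.58 and 6.03. Only 2 of the 10 genes, Rag1 and Vpreb1, were themselves lowest on the 3 arrays, and the median SD of the 10 was 0.36, against 0.34 over all genes.

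Stromal genes ran the other way on several arrays. Cxcl12, the chemokine that keeps blood-forming cells in the marrow, measured 6.77, 7.22, 5.79, 6.80 and 8.17 in experiment 2, against 8.98, 7.12, 8.20, 6.35 and 8.97 in experiment 1. The mean of the 8 stromal and bone genes kept was 5.90, 6.05, 5.73, 6.50 and 6.77 in experiment 2, against 6.95, 5.93, 6.54, 5.70 and 7.16 in experiment 1. The 5 highest arrays on this list were replicates 4 and 5 of experiment 2 and replicates 1, 3 and 5 of experiment 1. These include the 3 arrays of lowest erythroid level. Defining stromal genes such as Pdgfrb and Bglap were not detected on any array. The part of such cells in the spread was not tested. Kng1, kininogen, followed a similar order at 8.08, 8.59, 7.003, 9.92 and 9.39 in experiment 2, against 10.55, 7.88, 9.56, 6.21 and 10.59 in experiment 1. Other Kng1 probes had means of 4.97 and 4.44 and SDs of 0.36 and 0.04, against an SD of 1.56 for this one.

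A second set of variable genes followed the 2 arrays that stood apart. These 2 arrays were lowest for 12 of the 30 genes and highest for 2, Adamtsl4 and Axl, a receptor tyrosine kinase of macrophages. Arrb1, beta-arrestin 1, measured 9.80, 9.79, 9.77, 6.57 and 9.89 in experiment 2, against 9.73, 10.13, 9.997, 10.46 and 7.83 in experiment 1. Csf3r, the receptor for granulocyte colony-stimulating factor, measured 9.31, 9.43, 9.67, 6.29 and 9.62 in experiment 2, against 8.15, 9.15, 9.62, 9.91 and 7.27 in experiment 1. Axl measured 5.77, 5.72, 7.37, 8.43 and 6.45 in experiment 2, against 7.27, 6.34, 6.31, 5.07 and 9.05 in experiment 1. Csf3r was the lowest on these 2 arrays in its experiment, whereas Camp on the same arrays was 12.32 and 12.77, near its other values. Other probes of Csf3r detected on all 10 arrays had SDs of 0.41, 0.57 and 0.62, against 1.28 for the brightest, and those of Arrb1 0.498 and 0.51, against 1.26. The size of this spread therefore rests on 1 probe in each of these genes. The 12 also include the histone genes H2ac11, H2ac12 and H2ac15, which have near-identical copies, Gtf2f1, a general transcription factor subunit, Kmt5a, a histone methyltransferase, Fis1, a mitochondrial fission factor, and Prdx2, a peroxiredoxin.

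Leaving out the 2 arrays gave smaller spreads. The median SD over all genes was 0.23 without them. The SD of the 12 genes was then between 0.22 and 0.87, as their choice by these 2 arrays requires. Of the 30 genes, 16 were among the 30 of largest SD without them, and 16 had an SD over 1. All 10 genes of the set detected on 3 to 9 arrays had an SD over 1 without them, and the SD of Slc4a1 was then 2.80. Genes with an SD over 1 numbered 175 with all arrays and 87 without the 2.

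The other variable genes had patterns of their own. Matn4, a cartilage matrix protein, rested on 1 array: it measured 4.50, 10.95, 5.19, 4.42 and 5.87 in experiment 2, against 4.49, 4.80, 4.96, 4.61 and 5.65 in experiment 1. It also rested on 1 probe, as its other probes, with means of 4.45 and 4.49, were detected on no array. Dab2, an endocytic adaptor, measured 7.23, 4.67, 9.76, 10.53 and 7.97 in experiment 2, against 5.78, 7.98, 8.36, 4.80 and 8.13 in experiment 1. Its low arrays, replicate 2 of experiment 2 and replicate 4 of experiment 1, were among the highest in Slc4a1. On these arrays Dab2 lay below the lowest signal of a detected probe (4.94 and 4.89). Other Dab2 probes, with means of 4.36 and 4.41, were detected on no array. A further probe, detected on 5 arrays, had an SD of 1.26, against 1.98 for the brightest.

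**Figure D3:**
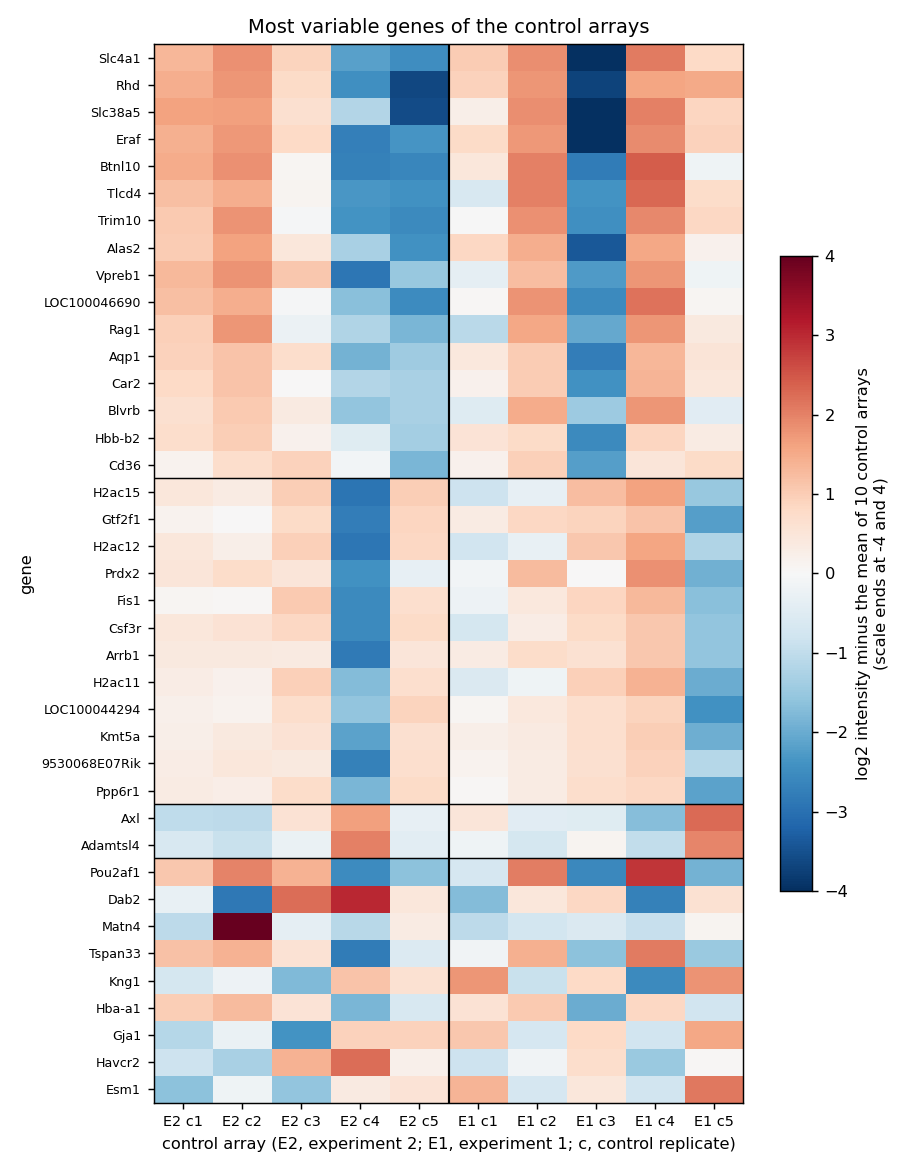
Log2 intensity of 39 of the 40 most variable genes (rows) minus each gene's mean over the 10 control arrays (colour), with experiment 2 controls 1 to 5 left of experiment 1 controls 1 to 5 (columns). The 16 genes of the first block are lowest on replicates 4 and 5 of experiment 2 and 3 of experiment 1, and the 12 of the next block on replicate 4 of experiment 2 and replicate 5 of experiment 1.

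Experiment 2 controls were then set against experiment 1 controls, the same condition in both runs of the study. No gene of 9909 (0%) passed limma at an adjusted p under 0.05, and the smallest adjusted p was 0.286. At an unadjusted p under 0.05 there were 471 genes (4.75%), 263 higher (2.65%) and 208 lower (2.1%), where 5% is what chance gives. All experiment 2 arrays lay above all experiment 1 arrays in 105 genes (1.06%) and below them in 58 (0.585%). More than 2-fold differences were seen in 22 genes. The median difference over all genes was -0.02, with 45.9% of genes higher; with median scaling in place of quantile normalization it was -0.14, with 27.1% higher. The count of called genes differed in 3 alternative fits. It was 62 (56 higher and 6 lower) with limma's array weights, which ranged up to 3.27 and were lowest, at 0.157 and 0.217, for the 2 arrays that stood apart. It was 2 without both arrays, namely Abcc10 (1.54) and Plppr2 (1.29), 2 transmembrane proteins, at an adjusted p of 0.0277. It was also 2 when all 26 arrays shared 1 estimate of the spread, namely Cd83 and Pde4b at an adjusted p of 0.0456.

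The 10 genes of smallest p in each direction are named although none passed. Among the higher ones was Jund, a subunit of the AP-1 transcription factor. It measured 7.86, 8.08, 7.59, 7.93 and 8.14 in experiment 2, against 7.002, 6.72, 6.80, 7.13 and 6.80 in experiment 1, so the groups did not overlap. Its difference was 1.03 ± 0.15 (SE) with an unadjusted p of 2.1e-05 and an adjusted p of 0.286 by limma. Pde4b, a phosphodiesterase that degrades cyclic AMP, measured 7.92, 8.43, 8.07, 8.42 and 8.08 in experiment 2, against 7.62, 7.21, 7.02, 7.08 and 6.37 in experiment 1 (difference 1.12). Cd83, a surface marker of activated dendritic cells and B cells, measured 6.33, 6.11, 6.82, 7.23 and 7.16 in experiment 2, against 5.78, 5.40, 5.82, 4.78 and 5.23 in experiment 1 (difference 1.33). In both of these genes as well the groups did not overlap.

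Prf1, the pore-forming perforin of NK and cytotoxic T cells, measured 10.31, 10.39, 10.53, 10.62 and 10.45 in experiment 2, against 9.63, 9.50, 9.57, 10.003 and 9.96 in experiment 1 (difference 0.73). A second Prf1 probe, detected on 2 arrays, had a difference of -0.17. With slide as a term in the fit of 26 arrays, the difference of Prf1 was -0.22, while the other 19 named genes kept their sign. Some of those differences were then small: 0.04 for Tle3, 0.17 for Fndc9, -0.12 for Vegfb and -0.41 for Tefm. None passed the adjusted test in that fit. Of the NK-cell list as a whole, 3 of 10 genes were higher in experiment 2 with a median difference of -0.24, so Prf1 lay on the other side from most of its list. The remaining higher genes were Qrich1 (1.63), Fndc9 (1.27), Tle3 (1.09), a co-repressor, Ccnt1 (1.06), the cyclin of the elongation factor P-TEFb, Nfkbib (0.76), an inhibitor of NF-kappaB, and Myo5a (0.74), an unconventional myosin.

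Fos, the partner of Jun proteins in AP-1, was among the lower genes. It measured 10.67, 10.35, 10.53, 10.11 and 10.62 in experiment 2, against 10.90, 11.32, 11.13, 11.14 and 11.24 in experiment 1, a difference of -0.69 with an adjusted p of 0.385 by limma. Jund and Fos, 2 subunits of one factor, thus had differences of opposite sign, each without overlap. Ptger2, a prostaglandin E2 receptor, was lower at 5.62, 5.44, 5.58, 4.54 and 5.49 in experiment 2, against 5.85, 6.31, 6.40, 6.24 and 6.24 in experiment 1 (difference -0.87). The other lower genes were Tefm (-1.19), a mitochondrial transcription elongation factor, 1600014C10Rik (-1.15), Zfp3 (-0.98), Pigb (-0.90), an enzyme of GPI anchor synthesis, Usp20 (-0.70), a deubiquitinase, Nlrc5 (-0.64), the transactivator of MHC class I genes, Nek3 (-0.58) and Vegfb (-0.57), a growth factor. All 20 named genes kept their direction when either or both arrays that stood apart were left out. Their choice by smallest p on these same arrays favours this, so it is no separate support. Other probes had smaller differences of the same sign in Myo5a (0.26), Ptger2 (-0.26), Nek3 (-0.35 and -0.12) and Tle3 (0.83 and 0.02). The one for Myo5a was detected on all 10 arrays, the others on 1 to 6.

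**Figure D4:**
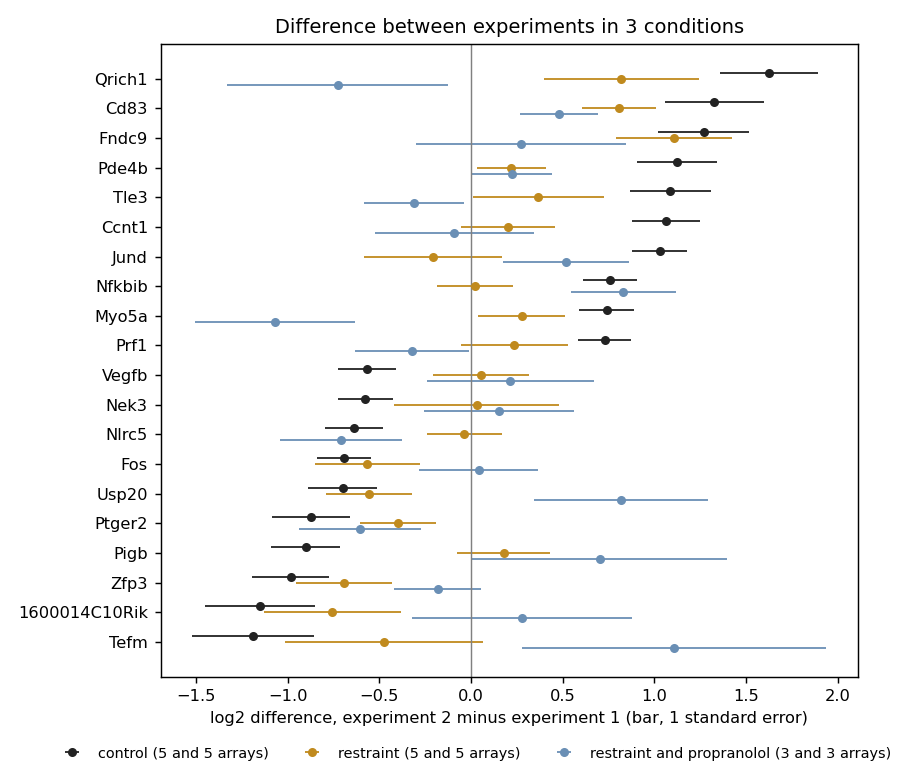
Difference in log2 intensity of the 20 named genes, experiment 2 minus experiment 1 (horizontal axis; vertical axis, genes), in controls, restraint and restraint with propranolol arrays, with bars of 1 SE from limma. Of the 20 genes, 16 have the sign of the controls under restraint and 8 under restraint with propranolol.

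The restraint and restraint with propranolol arrays give the same contrast in other samples. Under restraint the experiment 1 arrays were on slides 1 and 2 (3 and 2 arrays) and the 5 experiment 2 arrays on slide 3. With propranolol the 3 experiment 1 arrays were on slide 2 and the experiment 2 arrays on slides 3 and 4 (1 and 2). Within each condition, then, experiment and slide cannot be told apart. Of the 20 genes, 16 had the same sign among restraint arrays and 8 among restraint with propranolol arrays, against 56.2% and 53.4% of all genes. Under restraint 4 of the 16 had an unadjusted p under 0.05 by limma: Fndc9 (1.11), Cd83 (0.81), Zfp3 (-0.69) and Usp20 (-0.56). Jund, of the smallest p in controls, was not among the 16, with -0.21 under restraint. Of the 471 genes with an unadjusted p under 0.05 in controls, 322 (68.4%) had the same sign under restraint. Between experiments, no gene passed limma under restraint (733 genes, 7.4%, at an unadjusted p under 0.05) or under restraint with propranolol (517 genes, 5.22%). The difference between the control and restraint contrasts passed in no gene (399 genes, 4.03%, at an unadjusted p under 0.05). Leaving out 1 restraint array gave at most 1 called gene.

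Inflammatory cytokine and NF-kappaB genes lay on one side. All 23 measured were higher in experiment 2 (20 of 23 with median scaling), with a median difference of 0.30, against -0.02 over all genes. None passed the adjusted test. The mean of the list was 8.56, 8.61, 8.76, 8.74 and 8.47 in experiment 2, against 8.35, 8.32, 8.28, 8.28 and 7.85 in experiment 1. No array of the 2 groups overlapped, and replicate 5 of experiment 1, one of the arrays that stood apart, was the lowest. Without the 2 arrays that stood apart 18 of 23 were higher, with a median difference of 0.22, and the list means still did not overlap. With median scaling the list means of the groups overlapped.

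The single members differed in how far they separated. Tnf, the cytokine tumor necrosis factor, measured 7.83, 8.13, 7.74, 7.97 and 7.96 in experiment 2, against 7.48, 7.25, 7.54, 7.25 and 6.22 in experiment 1, a difference of 0.78 with an unadjusted p of 0.0063 by limma. Il1a, interleukin 1 alpha, measured 4.97, 5.12, 6.47, 7.28 and 5.15 in experiment 2, against 4.93, 4.81, 4.68, 4.75 and 4.57 in experiment 1. These were the 2 members of 23 without overlap, both above, where 1.06% of all genes lay above. In Il1a the gap between the nearest arrays was small. Its 5 experiment 1 values were below the lowest signal of a detected probe on their own arrays (4.86 to 5.17). Nlrp3, the inflammasome sensor, measured 8.50, 8.83, 8.19, 7.18 and 7.84 in experiment 2, against 7.01, 6.88, 6.82, 7.62 and 4.58 in experiment 1 (difference 1.53). Its 4.58, on replicate 5 of experiment 1, lay below the lowest signal of a detected probe there (5.17). Tnf was lowest on that array too (6.22), so both differences lean on an array that stood apart. Rel, a subunit of NF-kappaB, measured 7.41, 7.74, 7.14, 7.76 and 7.43 in experiment 2, against 7.31, 6.56, 6.20, 6.27 and 6.85 in experiment 1 (difference 0.86). Cxcl2, a chemokine for neutrophils, had a difference of 0.65 and Il1a of 1.05. These 5 of 23 genes had an unadjusted p under 0.05 by limma, against 2.65% of all genes in this direction. Under restraint 9 of the 23 genes were higher in experiment 2, with a median difference of -0.07, and under restraint with propranolol 19 of 23, with a median of 0.33.

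**Figure D5:**
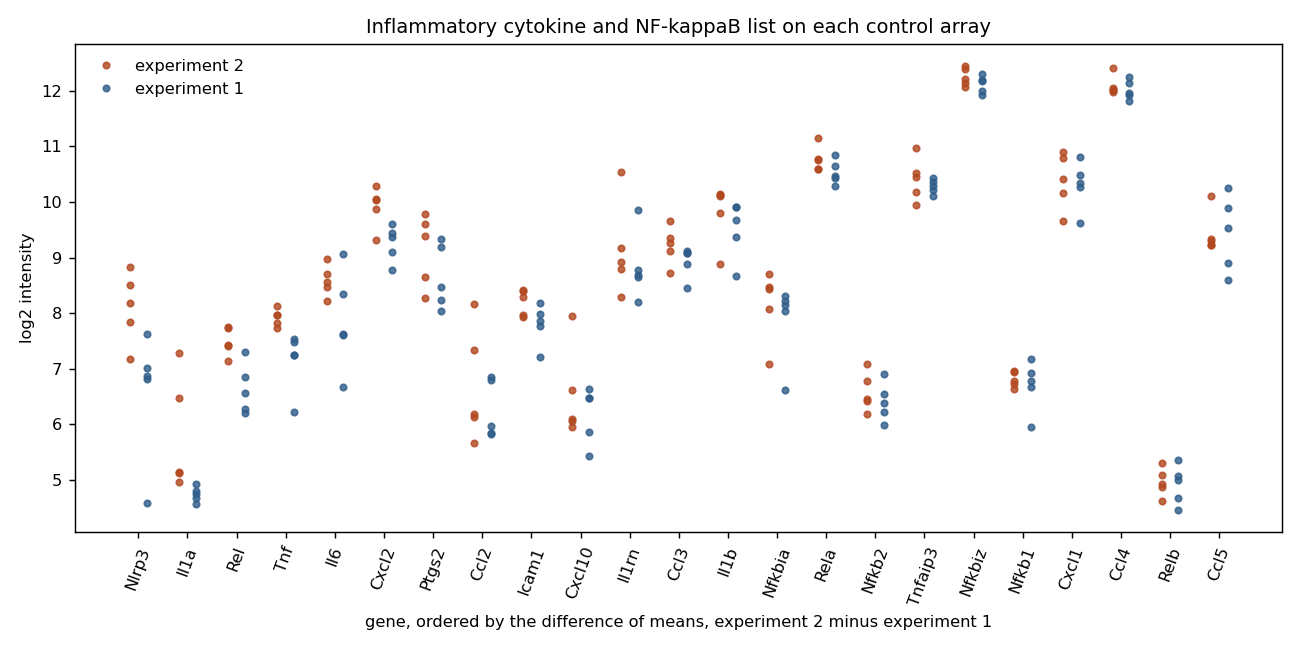
Log2 intensity (vertical axis) of the 23 inflammatory cytokine and NF-kappaB genes (horizontal axis, ordered by difference of means) on each control array, experiment 2 points left of experiment 1 points. The means of all 23 are higher in experiment 2 (20 of 23 with median scaling), and the arrays of the groups do not overlap in Tnf and Il1a.

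Immediate early genes, which cells switch on within minutes of a stimulus or of handling, did not move as one. Of 24, 16 were higher and 8 lower in experiment 2, with a median difference of 0.14. Higher without overlap were Jund, Nr4a2 and Egr2, and lower without overlap was Fos, against 1.06% of all genes above and 0.585% below. Nr4a2, an orphan nuclear receptor, measured 6.96, 7.45, 7.01, 7.27 and 6.83 in experiment 2, against 6.48, 6.07, 6.21, 6.19 and 6.66 in experiment 1, a difference of 0.78 with an unadjusted p of 0.00066 and an adjusted p of 0.385 by limma. Nr4a1 had a difference of 0.98 and Egr2 of 0.56. Dusp1, a phosphatase that ends MAP kinase signalling, measured 12.23, 12.28, 12.56, 12.11 and 12.16 in experiment 2, against 12.38, 12.68, 12.56, 12.64 and 12.72 in experiment 1 (difference -0.33). Egr1, an early zinc-finger factor, differed by 0.02. Members of one list thus lay on both sides.

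Several other lists leaned to one side without a called gene. Over all genes 45.9% were higher in experiment 2 (27.1% with median scaling), 47.1% under restraint and 45.4% under restraint with propranolol. Type I interferon response genes were lower in 22 of 25, with a median of -0.18, and their list means overlapped: 7.68, 7.53, 7.63, 8.10 and 7.53 in experiment 2, against 7.81, 8.52, 7.76, 7.49 and 7.80 in experiment 1. Without the 2 arrays that stood apart 23 of 25 were lower, with a median of -0.33. Under restraint, 3 of 25 were higher, and under restraint with propranolol 12 of 25. S phase and mitosis genes were lower in 30 of 33 (median -0.22). Under restraint 26 of 33 were higher, and with propranolol 6 of 33 (median -0.22). DNA repair genes were lower in 34 of 44 (median -0.11). Under restraint 26 of 44 were higher, and with propranolol 10 of 44 (median -0.25). Among controls with median scaling 23 of 25 interferon, 32 of 33 S phase and mitosis and 39 of 44 DNA repair genes were lower. MHC class II presentation genes were higher in 8 of 9 (median 0.36), against 6 of 9 under restraint and 7 of 9 with propranolol. Cd74, the invariant chain, measured 9.23, 9.13, 10.19, 9.36 and 10.60 in experiment 2, against 9.28, 8.59, 10.16, 8.41 and 8.92 in experiment 1.

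The list means of all 17 cell types overlapped between experiments. Secondary granule genes averaged 10.63 ± 0.16 in experiment 2 and 10.59 ± 0.19 in experiment 1, and primary granule genes averaged 9.79 ± 0.23 in experiment 2 and 9.97 ± 0.24 in experiment 1 (SD, n = 5 each). All 5 primary granule genes were lower. Mature neutrophil genes averaged 10.65 ± 0.25 in experiment 2 and 10.41 ± 0.13 in experiment 1, with 8 of 10 higher (6 of 10 with median scaling). Among them Il1r2, the decoy receptor for interleukin 1, measured 10.62, 10.98, 10.70, 10.89 and 10.08 in experiment 2, against 9.94, 9.60, 9.57, 9.27 and 10.39 in experiment 1, a difference of 0.90 with an adjusted p of 0.554 by limma. Trem1, an activating receptor of neutrophils, had a difference of 0.87. Eosinophil genes averaged 8.28 ± 0.25 in experiment 2 and 7.97 ± 0.41 in experiment 1 (SD, n = 5 each), with 5 of 7 higher (4 of 7 with median scaling and 7 of 7 without the 2 arrays that stood apart). Of these Prg3, a granule protein, had a difference of 0.89 and Ear6, a ribonuclease, of 0.76. Each had an unadjusted p under 0.05 by limma, against 2.65% of all genes in this direction. Under restraint and under restraint with propranolol 0 of 7 eosinophil genes were higher, with medians of -0.40 and -0.43. Among controls, erythroid genes were lower in 17 of 20 (median -0.41) and heme synthesis genes in 10 of 11 (median -0.15). Without the 2 arrays that stood apart those counts were 14 of 20 and 8 of 11. With median scaling the counts were 18 of 20 and 11 of 11, where 27.1% of all genes were higher. Under restraint and under restraint with propranolol 15 of 20 erythroid genes were higher, with medians of 0.14 and 0.65. Of the heme synthesis genes 5 and 6 of 11 were higher there. Among controls the erythroid difference of the group means was -0.44, within the spread of 1.30 among arrays of one experiment. It ranged from -1.01 without replicate 3 of experiment 1 to -0.12 without replicate 5 of experiment 2.

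A few genes were detected on all 5 arrays of one experiment and on none of the other. They were chosen after their values were seen. Diaph2, a formin, was at least 1.33-fold higher in experiment 2 and Tmtc2 at least 1.19-fold higher, with adjusted p-values of 0.550 and 0.774 by limma. Pimreg was at least 1.07-fold brighter in experiment 1 (adjusted p of 0.960). The bound sets the mean of the brighter group against the dimmer group's mean of, on each array, the lowest signal of a detected probe or the gene's own value, whichever was higher. All 3 lay close to background.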

How the data were processed

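The authors deposited a raw matrix of the MouseRef-8 v2.0 beadchips for 25697 probes. Per the file headers it gives a mean bead signal, a detection p-value, a bead standard error of the signal and a number of beads. The signal (intensity) ran from 96 to 21411 on the 26 labelled arrays. The deposited intensity was not background-corrected or normalized as far as its values show. GenomeStudio is named in the submitters' processing notes, with no version. The authors also deposited a normalized intensity matrix, whose method is not given in the sources used here, and it served only as an alternative. A further 6 arrays of the raw matrix match no label and were not used.

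The 26 labelled arrays were background-corrected with limma's neqc (offset 16), quantile-normalized and put on the log2 scale. Probes with a detection p-value under 0.05 on at least 3 of the 10 controls were kept (13666, for 9909 genes), and the probe of highest mean stood for its gene. Probes were named through RefSeq by Entrez identifier (23788), accession (1148), symbol (99) or synonym (98), while the deposited symbol was used for 564. Experiment 2 was tested against experiment 1 with limma 3.58.1 in R 4.3.3 (lmFit, eBayes) on the 10 controls alone, with Benjamini-Hochberg adjustment over all kept probes. Genes were named by brightness (25), by SD within experiments (30 and 10), by smallest p where fewer than 5 genes were called in a direction (10 each way), and from gene lists by level or difference. Members and lists were chosen with earlier results of these data known. A few genes are not reported here. The code was tested on simulated data. The number of arrays limits the precision.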

Additional observations from a re-analysis of the deposited data

Results flagged for a closer look

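In groups of 5 arrays, 33 of 182 tested sets of values (18.1%) had 1 array far from the other 4. Chance gives about 1 in 20 for values not chosen by their spread, such as list means and shares detected, of which 7 of 62 were so. The other 26 were among 120 sets from genes chosen for their spread or their difference on these arrays, to which that rate does not apply. Nearly all fell on 3 arrays: 16 on replicate 4 of experiment 2, 8 on replicate 5 of experiment 1 and 8 on replicate 3 of experiment 1.

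On replicate 4 of experiment 2 the share of probes detected was 42.5%, the S phase and mitosis mean 7.91, the DNA repair mean 6.70 and the type I interferon mean 8.10, the last being high and the others low. Low genes on it were H2ac15 (5.61), H2ac12 (5.46), Gtf2f1 (6.10), Fis1 (5.59), Csf3r (6.29), Arrb1 (6.57), Kmt5a (6.27), 9530068E07Rik (5.97), Ppp6r1 (8.36), Ptger2 (4.54) and 1600014C10Rik (4.59), and Adamtsl4 (8.12) was high. On replicate 2 of experiment 2 Matn4 was high at 10.95.

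On replicate 5 of experiment 1 the ribosomal protein mean was 9.37 and the inflammatory and NF-kappaB mean 7.85, both low, and the Y-linked gene mean was 8.60, which was high. Low genes on it were Gtf2f1 (6.67), Arrb1 (7.83), LOC100044294 (6.28), Kmt5a (6.46) and Ppp6r1 (8.04). On replicate 3 of experiment 1 the red cell genes Eraf (4.94), Alas2 (5.27), Aqp1 (8.21), Hbb-b2 (6.92), Cd36 (5.85), Slc4a1 (4.37) and Rhd (4.33) were low, as was Usp20 (7.93).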

How the results depend on the processing

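The count of genes called between experiment 2 and experiment 1 controls was 0, and it was also 0 with quantile normalization without background correction, median scaling, normalization of the 10 arrays alone, the authors' matrix, no filter, a detection p under 0.01, detection on all 10, averaged probes, slide as a random block and slide as a fixed term. Leaving out each control array in turn gave 0 calls each time (319 to 665 genes at an unadjusted p under 0.05). It was 62 with array weights, 2 with all 26 arrays in 1 fit, and 2 without both arrays that stood apart, an alternative chosen after seeing the data. Replicate numbers did not pair the arrays (correlations of same-numbered deviations from -0.53 to 0.28); with a replicate block the count was 0, with 359 genes at an unadjusted p under 0.05. Leaving out 1 restraint array gave 0 to 1 calls. The difference of Prf1 was -0.22 with slide as a fixed term. The cause of these changes was not tested. Leaving out 1 control moved the difference in share of probes detected between -2.46 and -0.09 percentage points, and the number of genes detected on all remaining arrays between 7019 and 7477. Of the SDs of the 40 variable genes, 35 moved without background correction and 36 in the authors' matrix; leaving out each array in turn moved 17 values and left 383 within the spread. Signals near background limit the dimmest genes, whose differences on the log2 scale are understated.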
